A study of Mus musculus with 6 samples.

Results

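The Slc2a genes encode the GLUT family of membrane carriers, which move glucose, fructose, urate or myo-inositol across membranes without direct use of ATP. This account covers 10 of them, Slc2a1, Slc2a2, Slc2a4, Slc2a5, Slc2a6, Slc2a8, Slc2a9, Slc2a10, Slc2a12 and Slc2a13, a named set whose genes lie on sequence that the analysed peak list covers, out of 15771 protein-coding genes there. A peak was assigned to a gene when its midpoint lay in the gene body or within 10 kb of either end, which gave 68 of the 84111 peaks. Methylated DNA had been captured with MBD2, a protein that binds methylated CpG dinucleotides, from sonicated DNA of primary chondrocytes of mouse knee articular cartilage taken at postnatal day 3 to 5. The 3 control cultures came from mice labelled Dnmt1 flox and the 3 conditional knockout (cKO) cultures from mice labelled Prx1-Cre;Dnmt1 flox/flox, so that both groups carry a floxed Dnmt1 allele, the gene of the maintenance DNA methyltransferase. The zygosity of the control allele and whether animals were pooled are not given in the labels. Prx1-Cre acts in limb mesenchyme, so cells of other origin in such a culture would keep Dnmt1.

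The deposited list was called on 3 merged datasets, and the peak names do not say whether they were control or cKO. The submitters named the list as regions of Dnmt1-mediated DNA methylation. Whether its peaks depend on Dnmt1 was not tested. No peak has a value per sample, so control and cKO were not compared, the depth per sample is unknown, and no value below has a replicate error. In a merged list a larger share of methylated cells and denser methylation in each cell cannot be told apart. The identity of the cells could not be checked against chondrocyte markers, since the list holds no expression values.

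Cartilage has no blood vessels, and its chondrocytes draw much of their energy from glycolysis, for which glucose must enter through GLUT proteins. Family members are sorted into 3 classes by sequence. Class I holds the classical glucose carriers, class II the fructose and urate carriers, and class III carriers that lie largely on internal membranes or have other substrates. GLUT1, the product of Slc2a1, is made in most cell types and is the major glucose carrier of chondrocytes, whereas GLUT2 is known from liver, pancreatic beta cells and intestine and GLUT4 from muscle and fat. Methylation of CpG-rich promoters generally goes with silent genes, and methylation of gene bodies is common in active genes.

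All 10 genes had at least 1 peak in the body or within 10 kb, against 81.7% of the 15771 protein-coding genes, a share so high that the count of 10 says little about the family. A peak inside the body was found for 9 of 10, against 64.7% of protein-coding genes, and Slc2a8 was the exception. Only Slc2a1 had a peak within 1 kb of a gene end, against 21.8% of protein-coding genes. None of the 9 members with a RefSeq promoter entry had a peak in the 250 bases before the start site, against 2.62% of 15401 promoters, nor within 1 kb of it, against 8.15%. With such low shares in the background, 0 of 9 is close to what the list as a whole gives. At these 9 members no peak of the list thus lay within 1 kb of the start site. That every assigned peak lay in a gene body or flank follows from the rule of assignment.

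The promoters are shown first, because they are the sequences at which a peak was looked for and not found, and because MBD2 can capture only sequence that holds CpGs. Each run below gives the 250 bases before the start site from RefSeq (GRCm38.p6), 5′ to 3′, with CpG dinucleotides in capitals. Slc2a1 stands for the broadly used gene, Slc2a2 for a tissue-restricted gene with few CpGs, Slc2a6 for the member with most CpGs, and Slc2a13 for the start site closest to a peak.
Slc2a1, chr4:119108495-119108744, plus strand: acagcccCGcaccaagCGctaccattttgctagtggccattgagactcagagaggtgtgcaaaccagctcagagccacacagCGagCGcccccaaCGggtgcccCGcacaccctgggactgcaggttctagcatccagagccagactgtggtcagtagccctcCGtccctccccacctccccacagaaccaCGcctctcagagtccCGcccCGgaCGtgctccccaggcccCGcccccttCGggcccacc
Slc2a2, chr3:28697653-28697902, plus strand: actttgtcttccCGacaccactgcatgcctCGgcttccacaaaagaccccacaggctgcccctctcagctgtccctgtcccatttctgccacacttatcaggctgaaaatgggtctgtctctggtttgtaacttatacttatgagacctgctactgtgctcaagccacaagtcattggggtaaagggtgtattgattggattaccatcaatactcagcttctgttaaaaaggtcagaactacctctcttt
Slc2a6, chr2:27027999-27028248, minus strand: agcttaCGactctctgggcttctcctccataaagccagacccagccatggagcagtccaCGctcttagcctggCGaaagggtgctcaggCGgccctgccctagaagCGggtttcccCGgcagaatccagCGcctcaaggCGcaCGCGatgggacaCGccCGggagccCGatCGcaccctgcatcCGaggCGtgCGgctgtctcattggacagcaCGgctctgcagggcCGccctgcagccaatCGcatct
Slc2a13, chr15:91573262-91573511, minus strand: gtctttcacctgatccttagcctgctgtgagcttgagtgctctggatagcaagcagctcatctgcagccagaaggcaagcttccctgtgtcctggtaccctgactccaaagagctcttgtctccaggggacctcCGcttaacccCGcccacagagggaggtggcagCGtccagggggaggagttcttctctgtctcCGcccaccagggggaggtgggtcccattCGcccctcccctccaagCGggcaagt

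The number of CpGs differed widely among the members. Slc2a6 had 20 in the 250 bases, Slc2a5 15, Slc2a1 13, Slc2a10 8, Slc2a8 7, Slc2a13 6, Slc2a12 5, Slc2a2 2 and Slc2a9 1, against a median of 11 over the 15401 promoters. The Slc2a1 window had a GC content of 66.4% and held 0.515 of the CpGs that its C and G content would give by chance, and 55.0% of promoters had fewer CpGs. The Slc2a2 window had a GC content of 47.2% and a CpG ratio of 0.15. Slc2a1 is therefore near the middle of the genes in promoter CpG number, and Slc2a2 and Slc2a9 are near the bottom, with 13.4% and 5.60% of promoters below them.

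Over all promoters the share overlapped by a peak depended on the CpG number. It was 1.21% (38 of 3152; 95% Wilson interval 0.88% to 1.65%, counting error only) with 0 to 2 CpGs, the class of Slc2a2 and Slc2a9, and 4.68% (106 of 2266; 3.88% to 5.63%) with 3 to 5, the class of Slc2a12. The share was highest, 6.89% (154 of 2234; 5.92% to 8.02%), with 6 to 10 CpGs, the class of Slc2a8, Slc2a10 and Slc2a13. In the class of Slc2a1 and Slc2a5, with 11 to 15 CpGs, it was 2.70% (57 of 2110), and in that of Slc2a6, with 16 to 20, it was 1.24% (25 of 2019). The lowest share, 0.663% (24 of 3620; 0.446% to 0.985%), was that of promoters with over 20 CpGs, which include no member. The 5-letter run ACGTG, a form of the core of the element bound by hypoxia-inducible factors and itself a sequence with a CpG, was searched on both strands. It occurred in the window of Slc2a1 and in none of the other 8, against 18.2% of promoters. The other form of the core, GCGTG, was not searched, and the Slc2a6 window printed above holds it. The search therefore does not tell which members have such a core.

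With all peaks of the list counted, the distance from the start site of the promoter entry to the nearest peak was largest at Slc2a1. Its start site was 24.4 kb from the nearest peak, which lay downstream near the far end of the gene, and 83.4% of all promoters had a closer one. For the other 8 members the distance was 6.03 kb at Slc2a2, 5.63 kb at Slc2a9, 4.91 kb at Slc2a12, 4.23 kb at Slc2a8, 3.78 kb at Slc2a5, 3.31 kb at Slc2a6, 2.85 kb at Slc2a10 and 1.87 kb at Slc2a13. The median over all promoters was 7.98 kb (quartiles 3.19 and 17.6 kb). By their promoter entries, these 8 start sites were thus all closer to a peak than the median one, and that of Slc2a1 lay beyond the upper quartile. On the upstream side of Slc2a1 the next peak was 90.7 kb away, which makes a stretch of 115 kb without a peak, longer than at 88.8% of promoters. Slc2a9 had a stretch of 121 kb, but its peaks began 5.63 kb downstream. Its start site in the promoter entry, 38483385, lies inside the gene. From the start of its longest gene model, 38503147, the midpoint of that peak was 25701 bp away, against 24900 bp for the nearest peak of Slc2a1. That Slc2a1 differs from all other members thus depends on the start taken for Slc2a9. Since 1 gene was set against 8 in a single list, no test of this difference can be made. A region without a peak is one that did not pass the caller's limit in this list (lowest −log10 q, 20.004), and it may still be methylated.

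**Figure D1:**
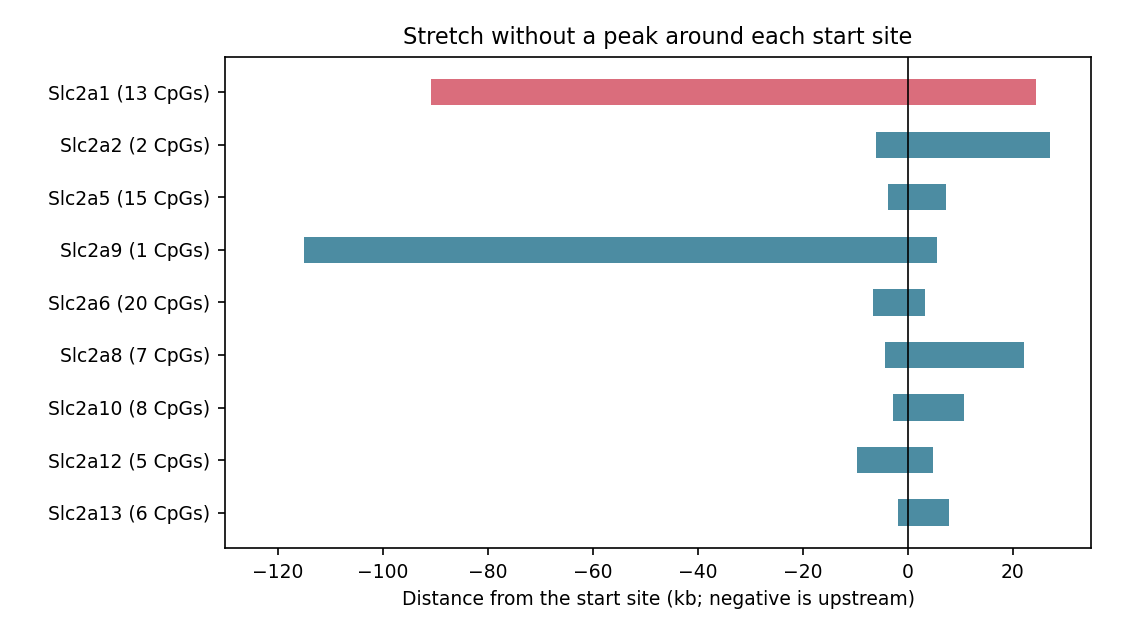
Stretch without a peak on both sides of the start site (kb, negative upstream) for the 9 members with a RefSeq promoter entry; the number of CpGs in the 250 bases before the start is given beside each name. The Slc2a1 bar reaches from 90.7 kb upstream to 24.4 kb downstream, while the other 8 members have a peak within 6.03 kb on at least 1 side. The start site of the Slc2a9 entry lies inside its longest gene model, and the bar would differ from the start of that model.

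The peaks of each gene follow, class by class, with the fold enrichment that the authors' caller gave over its background. The pileup, the number of merged reads at the summit, and the background were recovered from the deposited fold and p-value. The lowest background of the list was 6.37 reads, a floor that most peaks share, and intervals of the pileup are exact 95% Poisson intervals that cover counting error only. Gene positions are those of the RefSeq table of GRCm38.p6, the build of which the submitters' notes also speak. It holds no exons, so exon, intron and UTR were not assigned.

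Slc2a1 (gene 20525, chromosome 4, 119108745 to 119137330, plus strand) spans 28.6 kb and had 4 peaks, 2 in the body and 2 downstream. The first, at chr4:119133124-119134166, was 1043 bp wide, with a fold of 31.7 and a pileup of 233 reads (204 to 265). The second, at chr4:119136048-119136649, was 602 bp wide, with a fold of 31.2 and 229 reads (200 to 261). These pileups have overlapping intervals, so they did not differ beyond counting error. Both regions lie at the far end of the gene, 87.1% and 96.6% along it. The midpoint of the second is 981 bp inside the gene end, and it is the sole gene-end peak of the family, while the nearest other, in Slc2a2, was 1067 bp from the end. The 2 downstream peaks were weaker. One at 5368 bp beyond the gene was 85 bp wide with a fold of 6.38 and 46 reads (33.7 to 61.4), and one at 9360 bp was 269 bp wide with a fold of 9.22 and 67 reads (51.9 to 85.1). All 4 peaks had the lowest background, and the pileup intervals of the body peaks lay wholly above those of the downstream ones.

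Slc2a2 (gene 20526, chromosome 3, 28697903 to 28728361, plus strand), which encodes the low-affinity carrier GLUT2, is like Slc2a1 in span, 30.5 kb, and had 3 peaks. Its strongest lay upstream, 6386 bp before the gene at chr3:28691158-28691875, 718 bp wide, with a fold of 29.5 and 318 reads (284 to 355) over a background of 9.80. The other 2 were in the body, 90.0% and 96.5% along it, as at Slc2a1. That at chr3:28725153-28725466 was 314 bp wide with a fold of 11.3 and 82 reads (65.2 to 102), and that at chr3:28726918-28727670 was 753 bp wide with a fold of 27.1 and 240 reads (211 to 272) over 7.89. Both body peaks are also inside the lncRNA gene 1700112D23Rik, and cannot be assigned to 1 of these genes. The broadly used Slc2a1 and the liver-type Slc2a2 thus shared a body with peaks at its far end alone, and differed in the peak upstream of Slc2a2, of which Slc2a1 had no counterpart within 10 kb, and in the 2 peaks downstream of Slc2a1, of which Slc2a2 had none.

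Slc2a4 (gene 20528, chromosome 11, 69942286 to 69948216), the gene of the insulin-responsive carrier GLUT4, spans 5.93 kb and had 6 peaks, 2.31 per 10 kb of gene and flanks. This density was above those of the other 9 members, and 91.7% of the 1577 protein-coding genes of like span had fewer peaks. The peaks lie in close pairs, however, and with peaks within 500 bp of each other merged Slc2a4 had 3, or 1.16 per 10 kb, below the 1.27 of Slc2a12. It was also below Slc2a12 with a −log10 q limit of 100, at 0.771 against 1.01. Its 2 body peaks lay near the middle of the gene. The one at chr11:69944709-69945130 was 422 bp wide with a fold of 13.8 and 101 reads (82.3 to 123), and the one at chr11:69945197-69945515 was 319 bp wide with a fold of 8.95 and 65 reads (50.2 to 82.8). The strongest peak, chr11:69939731-69940394, was 664 bp wide with a fold of 43.5 and 320 reads (286 to 357). It lay 2223 bp outside the gene and inside the neighbouring Ybx2. Another peak inside Ybx2, chr11:69940510-69940868, was 359 bp wide with a fold of 17.2 and 126 reads (105 to 150). On the other side, 2 peaks 6442 and 6947 bp from the gene had widths of 145 and 265 bp, folds of 6.65 and 10.6, and pileups of 48 (35.4 to 63.6) and 77 reads (60.8 to 96.2). The strong signal within 10 kb of Slc2a4 was therefore in the next gene, while the peaks in Slc2a4 itself had lower folds than the body peaks of Slc2a1.

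In class II, Slc2a5 (gene 56485, chromosome 4, 150119344 to 150144168, plus strand), the gene of the intestinal fructose carrier GLUT5, spans 24.8 kb and had 6 peaks, 5 of them in the body. The highest fold was 44.2, for a peak of 843 bp at chr4:150139386-150140228 with 325 reads (291 to 362). The lowest was 7.87, for a peak of 163 bp at chr4:150135538-150135700 with 57 reads (43.2 to 73.9). Of the 5 body peaks 4 lay beyond the middle of the gene, between 65.6% and 86.8% along it. The widest peak of the family, 1503 bp at chr4:150114063-150115565, lay 4530 bp upstream, with a fold of 19.1 and 319 reads (285 to 356) over a background of 15.8. Slc2a7, a class II gene beside Slc2a5 that is not in the set, had 3 body peaks with folds from 13.6 to 36.1. Its 10 kb flank also takes in 3 of the peaks counted for Slc2a5.

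Slc2a9 (gene 117591, chromosome 5, 38349272 to 38503147, minus strand), a urate carrier gene of liver and kidney, spans 154 kb and had 12 peaks, all in the body. Its folds ran from 3.85 to 39.3, the widest ratio of folds in the family. The highest belonged to chr5:38477137-38477755, 619 bp wide, with 289 reads (257 to 324) over the lowest background. The lowest belonged to chr5:38406618-38407303, 686 bp wide, which had the highest pileup of the family, 586 reads (540 to 635), over the family's highest background, 152 reads. It was 1 of 5 neighbouring peaks within 7.33 kb (38405609 to 38412940) that all had a background above the lowest, from 11.2 to 152 reads, with folds from 3.85 to 34.6. A low fold there was not a low read count. MACS2 takes its background from a genome average or, where higher, from reads around the peak. Whether those reads came from a second set or from the merged data themselves is not given in the sources used here.

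Class III holds the remaining 5 genes. Slc2a6 (gene 227659, chromosome 2, 27021363 to 27028000, minus strand), a carrier gene of internal membranes, spans 6.64 kb and had 2 peaks. The body peak, chr2:27024482-27024683, was 202 bp wide with a fold of 7.60 and 55 reads (41.4 to 71.6). The other, chr2:27034521-27035398, had the highest fold of the family, 48.0, with 353 reads (317 to 392) over 878 bp. It lay 6959 bp upstream, inside the pseudogene Gm13397. Slc2a8 (gene 56017, chromosome 2, 32972981 to 32982083, minus strand), another intracellular carrier gene, spans 9.10 kb and had a single peak. This peak, chr2:32986315-32986809, was 495 bp wide with a fold of 28.5 and 209 reads (182 to 239), 4479 bp upstream and inside the neighbouring Garnl3. Slc2a8 was the sole member with no peak in its body, whereas 59.8% of the 1577 protein-coding genes of like span had one.

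Slc2a10 (gene 170441, chromosome 2, 165503897 to 165519917, plus strand) encodes GLUT10, whose loss in humans causes arterial tortuosity syndrome, a disorder of connective tissue. It spans 16021 bp and had 3 peaks. The widest body peak of the family was here, 1099 bp at chr2:165514561-165515659, with a fold of 39.5 and 290 reads (258 to 325), 70.0% along the gene. The next, chr2:165516166-165516528, had a fold of 14.1 and 103 reads (84.1 to 125). The weakest, chr2:165500815-165501051, lay 2964 bp upstream and had a fold of 9.63 and 70 reads (54.6 to 88.4). As at Slc2a1 and Slc2a2, both body peaks lay beyond the middle of the gene.

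Slc2a12 (gene 353169, chromosome 10, 22644990 to 22703880, plus strand) encodes GLUT12 and spans 58.9 kb. It had 12 peaks, 9 of them in the body, against a median of 4 over the 1577 protein-coding genes of like span, of which 91.6% had fewer. The highest fold was 29.6, at chr10:22679325-22679875 with 248 reads (218 to 281). The lowest was 4.54, at chr10:22688721-22689440, where 553 reads (508 to 601) stood over a background of 121. Both belong to a row of 6 body peaks within 11.3 kb (22679325 to 22690660) that had backgrounds from 7.41 to 121 reads, whereas the 6 other peaks of the gene had the lowest one. A dense row of this kind was present in Slc2a9 and Slc2a12, and the body peaks of Slc2a1, Slc2a4, Slc2a5, Slc2a6 and Slc2a10 were all at the lowest background.

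Slc2a13 (gene 239606, chromosome 15, 91267691 to 91573261, minus strand) encodes a proton-coupled myo-inositol carrier of the brain and is the longest member, at 306 kb. It had 19 peaks, 18 in the body, against a median of 9 over the 1577 longest protein-coding genes, of which 82.9% had fewer. Folds ran from 4.68, at chr15:91419546-91420199 with 432 reads (392 to 475) over a background of 91.6, to 33.6, at chr15:91284490-91285239 with 314 reads (280 to 351) over 8.37. The narrowest peak of the family, 84 bp at chr15:91323027-91323110, had a fold of 6.24 and the lowest pileup, 45 reads (32.8 to 60.2). Peaks were spread along the whole gene, from 2.62% to 98.8% of its length, and 1 peak with a fold of 7.05 lay 1995 bp upstream. Per 10 kb of gene and flanks it had 0.584 peaks, against a median of 0.329 over these 1577 genes.

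**Figure D2:**
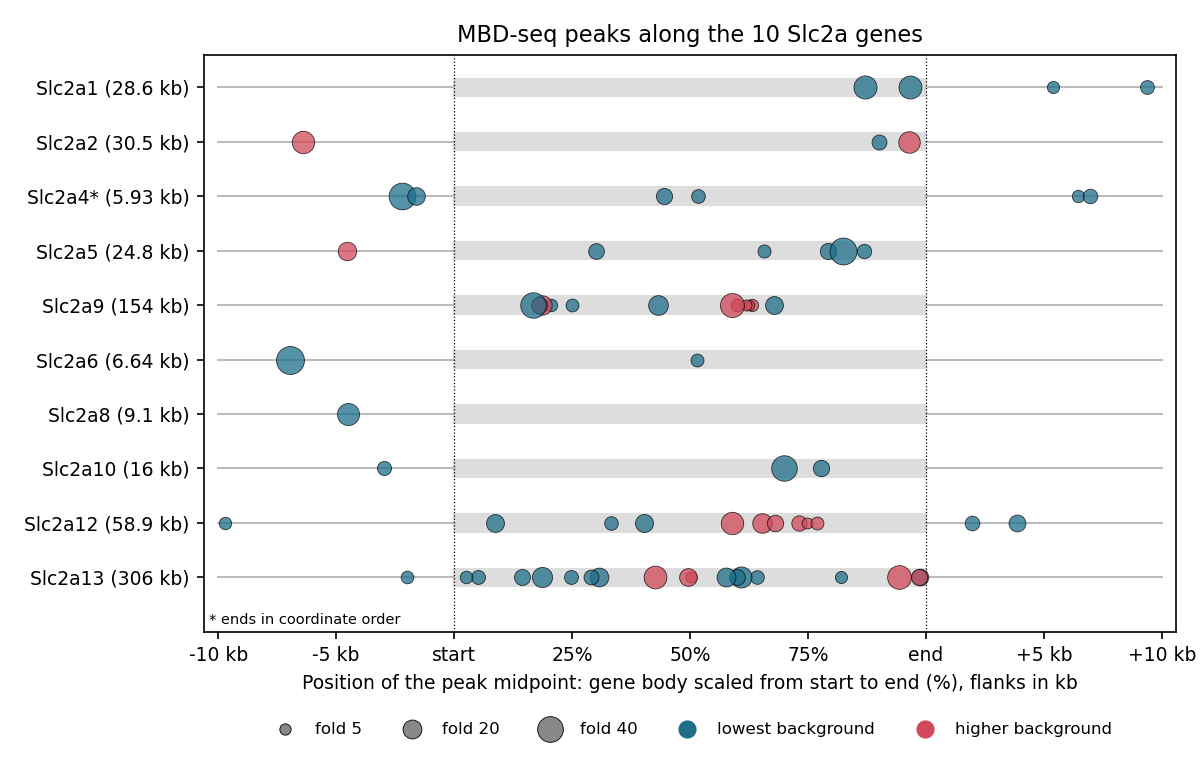
Peak midpoints along the 10 genes, with each body scaled from start to end (%) and the flanks in kb; circle area rises with fold and colour gives the recovered background. Slc2a4 is drawn in coordinate order, and the start of Slc2a9 is the end of its longest gene model. The 2 body peaks of Slc2a1 and of Slc2a2 sit beyond 87% of the gene, whereas those of Slc2a13 run from 2.62% to 98.8%.

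**Figure D3:**
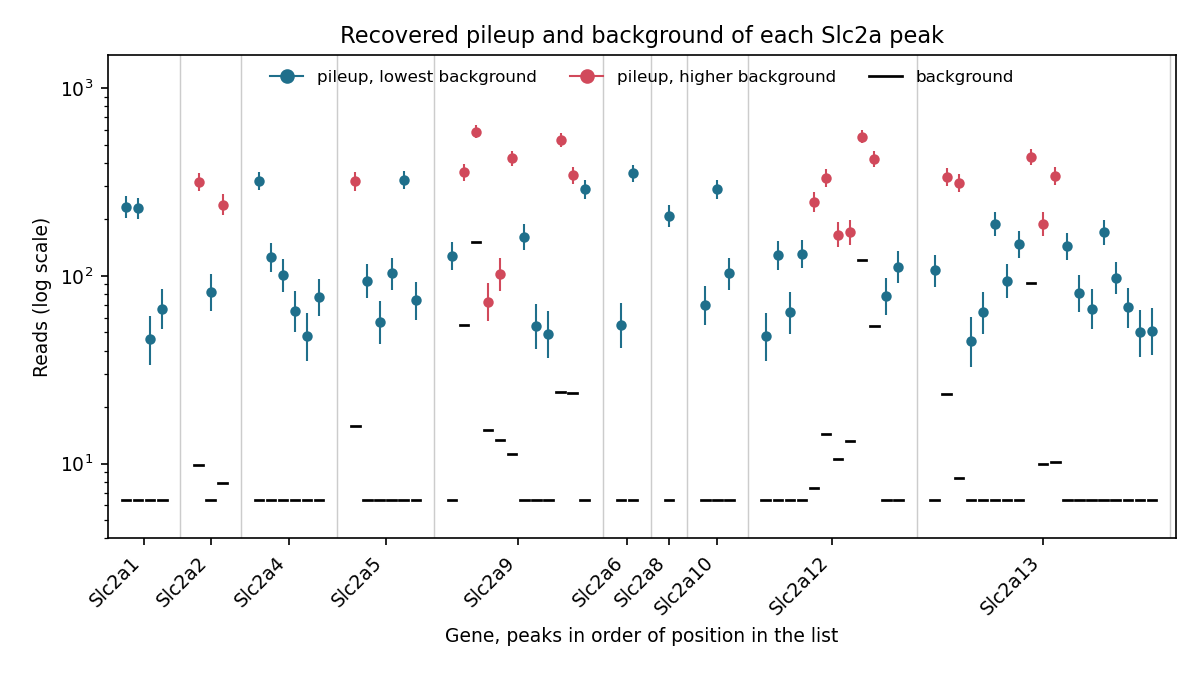
Recovered pileup of each of the 68 peaks (points, with exact 95% Poisson intervals, counting error only) and its background (bars) in reads on a log scale, by gene and in coordinate order. Every Slc2a1 and Slc2a4 peak stands over the lowest background of 6.37 reads, and the highest backgrounds are in Slc2a9 (152 reads) and Slc2a12 (121 reads).

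The number of peaks followed gene span. Across the 10 genes the Spearman rho between them was 0.69, against 0.52 over the 15771 protein-coding genes, both given as descriptions without a test. The members had a median of 5 peaks and a median span of 26.7 kb, and all protein-coding genes a median of 3 peaks and 18.6 kb. Per 10 kb of gene and flanks the medians were 0.787 and 0.482 peaks. Slc2a1, with 0.823 peaks per 10 kb, was in the middle of the family: 5 of the other 9 members were sparser, with a range over these 9 from 0.344 at Slc2a8 to 2.31 at Slc2a4. That place depends on the 2 peaks in its outer flank: with flanks of 5 kb Slc2a1 had 2 peaks, or 0.518 per 10 kb, and 1 of the other 9 was sparser. With flanks of 2 kb it also had 2 peaks, as in the body alone, and 3 of the 9 were sparser in each case. A −log10 q limit of 50 or 100, or a fold of at least the median, likewise left 2 peaks. Among genes of like span the median was 3 peaks, and 55.5% had fewer than the 4 of Slc2a1. In number and density of peaks, then, the broadly used gene fell within the range of the other members.

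**Figure D4:**
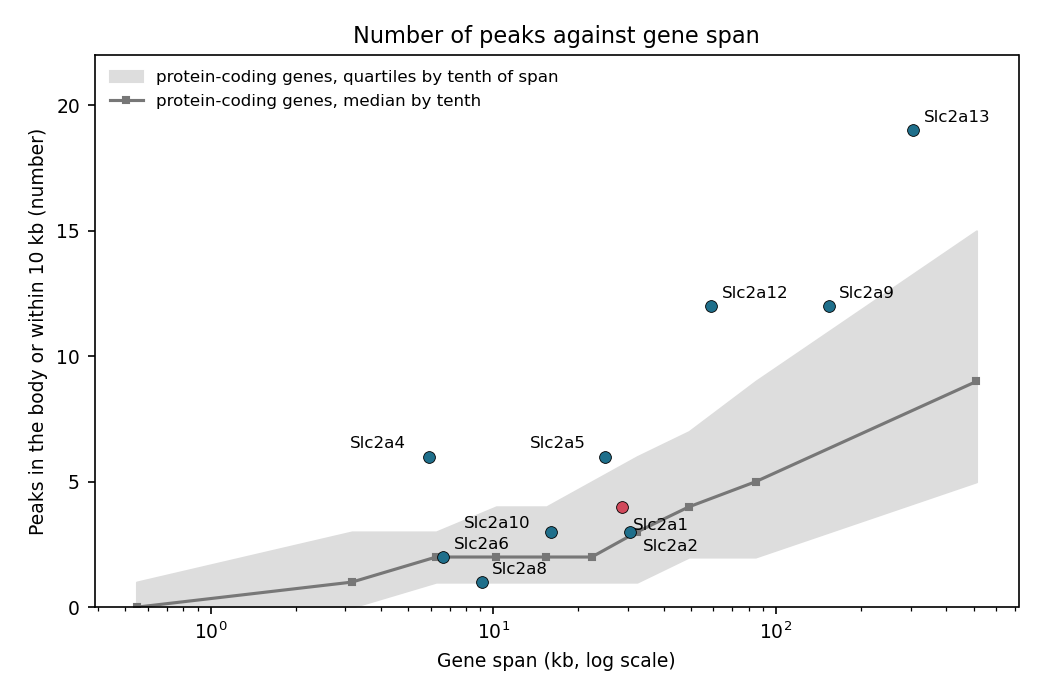
Number of peaks in the body or within 10 kb against gene span (kb, log scale) for the 10 Slc2a genes (points, Slc2a1 in red), with the median and quartiles of 15771 protein-coding genes in 10 groups of equal size by span. Slc2a4, Slc2a5, Slc2a12 and Slc2a13 lie above the upper quartile of their group, and Slc2a1 (4 peaks) within it.

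The 68 peaks were ordinary for the list in strength and width. Their median fold was 13.8 (quartiles 8.58 and 21.8), against 13.6 over the 51339 peaks in or within 10 kb of protein-coding genes, and 20 of them (29.4%) had a fold of at least 20, against 30.3%. The median width was 405 bp against 393 bp, and 3 peaks were over 1 kb wide, at Slc2a1, Slc2a5 and Slc2a10. Every one of the 10 genes had at least 1 peak with a fold of 20 or more, as did 55.4% of protein-coding genes. That share is not matched for span, and the median span was 26.7 kb in the members against 18.6 kb in protein-coding genes. By class, the median fold was 13.8 over the 13 peaks of class I, 13.4 over the 18 of class II and 13.8 over the 37 of class III. The strongest fold of Slc2a1, 31.7, lay inside the range of the strongest folds of the other 9, 28.5 to 48.0.

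A background above the lowest was found at 21 of the 68 peaks (30.9%), against 21041 of the 84111 peaks of the whole list and 16.1% of the peaks near protein-coding genes. These 21 peaks belonged to 5 genes, Slc2a2, Slc2a5, Slc2a9, Slc2a12 and Slc2a13, and 29.3% of protein-coding genes had such a peak. Of them, 18 were in the 3 longest members. Slc2a1 had none.

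Along the gene, 32 of 51 body peaks of the members with a known strand (62.7%) lay beyond the middle of the gene, counted from the start, against 61.8% of 35568 body peaks of protein-coding genes. The family as a whole was thus like other genes. In members of at most 50 kb, 11 of 12 body peaks lay beyond the middle, against 63.6% in other genes of that span, and in longer members 21 of 39 (53.8%), against 60.6%. The split at 50 kb was chosen after the positions were seen and is given without a test. Peaks of 1 gene are not independent of each other.

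Other genes of glucose handling were counted from a list of 47, of which 35 lie on covered sequence, and 33 of these had a peak in the body or within 10 kb (94.3%), against 81.7% of protein-coding genes. In sugar transporters it was 6 of 7, in genes of GLUT traffic and control 12 of 12, in monocarboxylate transporters and their chaperone 5 of 5, and in glycolytic enzymes 10 of 11. The medians were 5 peaks per gene for sugar transporters, 3.5 for traffic and control, 4 for monocarboxylate transporters and 7 for glycolytic enzymes, against the 5 of the Slc2a genes and the 3 of all protein-coding genes. These shares and medians were not matched for gene span, with which peak number rose over all protein-coding genes (Spearman rho 0.52). A peak within 1 kb of a gene end was present at 5 of the 35, a lower share than the 21.8% of protein-coding genes. These were the sodium-coupled sugar transporter gene Slc5a10, the lactate exporter gene Slc16a3 and the hexokinase genes Hk1, Hk2 and Hk3. The strongest of them by fold were at Hk1, 44.2 with 339 reads, and at Slc16a3, 39.3 with 289 reads. At Hk2 the fold was 8.14 with 59 reads. Slc5a10 and Hk3 had 2 such peaks each, of which 1 is given here, with folds of 24.8 (182 reads) and 9.77 (71 reads). The highest fold of any peak was 32.7 at Slc5a10 and 33.2 at Hk3. The gene-end peak of Slc2a1, with a fold of 31.2, lay below those of Hk1 and Slc16a3 and above that of Hk2. It was not placed against Slc5a10 and Hk3, for which not every gene-end peak is given.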

How the data were processed

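MBD-seq of 6 chondrocyte cultures (3 control, 3 cKO) was represented by 1 peak list of the whole series. The submitters' processing notes name fastp, Bowtie2 and MACS2 and the builds mm10 and GRCm38, without versions or settings. Per the file headers and peak names, 3 datasets were merged with Samtools before calling. The deposited fold is the ratio of signal to the background that the caller estimated. The deposited −log10 p and −log10 q (p-value and q-value) and the deposited score, 10 times the −log10 q cut to a whole number, are 1 value per peak. The list covers chromosomes 1 to 5, 10 to 19 and part of 6; 1 last line that breaks off was left out, and other sequence, Slc2a3 included, was not analysed here. Peak coordinates are printed 1-based. Samples were grouped by title, but no column belongs to a sample, so no comparison between groups was made.

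Pileup and background were solved from fold and p-value, taking fold as (pileup + 1)/(background + 1) and p as a Poisson tail for a whole-number pileup. Within 1% of the spacing between neighbouring pileups, 99.97% of peaks and all 68 Slc2a peaks matched. The solver was tested on simulated data. Genes came from a RefSeq table of GRCm38.p6 (protein-coding, beyond the first 3 Mb of a chromosome). All 10 members matched by symbol, and 9 had a RefSeq promoter entry; the entry of Slc2a4 was missing. Promoter values use 250 bases before each start site. Genes were ranked in 10 groups of equal size by span. Python 3.11.15, numpy 2.4.6, pandas 2.3.3, scipy 1.17.1 and matplotlib 3.10.9 were used.

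The members and lists were chosen with earlier results of these data known. Named items were all 10 members, the peaks of highest and lowest fold of each gene, gene-end peaks, all peaks of Slc2a1, Slc2a2 and Slc2a4, and other pathway genes with a gene-end peak; further peaks were named after their values were seen. The alternatives were placing peaks by summit or by any overlap (minimum 1 bp), flanks of 5, 2 or 0 kb, −log10 q of at least 50 or 100, folds of at least the median of the list, the lowest background alone, and merging within 500 bp.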

Additional observations from a re-analysis of the deposited data

How the results depend on the processing

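No paired analysis was possible because all deposited values come from merged data, and so no replicate could be left out. The count of Slc2a genes with a peak was 10 under all alternatives except a flank of 2 kb and the gene body alone, which gave 9, since the single peak of Slc2a8 lies farther out. The 68 peaks became 36 with a −log10 q limit of 100 and 36 at folds of at least the median of the list. The median fold of 13.8 (95% interval by order statistics 10.6 to 17.3) became 17.5 with a −log10 q limit of 50, 21.5 with one of 100 and 21.5 at folds of at least the median. These filters remove weak peaks by construction. The interval treats the 68 peaks as independent draws, which peaks of 1 gene are not. Slc2a13 alone gave 19 of the 68. Under the other 7 alternatives the median ran from 12.9 to 14.1. Counts of single genes moved by more than 1.5 times for 7 of the 10 members at the median fold and for 6 with a −log10 q limit of 100, and for none by summit or overlap. For the limit of 10 kb, the peaks just inside it were 9.36 kb from Slc2a1 (fold 9.22) and 9.72 kb from Slc2a12 (fold 6.65), and those just outside were 11.5 kb from Slc2a1 (fold 13.2) and 11.1 kb from Slc2a10 (fold 6.24). Read depth per sample is unknown, and regions under the lowest −log10 q of the list (20.004) are not in the list.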

Other observations

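Of the 15 peaks in the flanks of the Slc2a genes, 6 lay inside another annotated gene, against 63.3% of the 19002 pairs of a protein-coding gene and a flank peak. Ybx2, the gene of a germ-cell RNA-binding protein beside Slc2a4, held 2 of them, with folds of 43.5 and 17.2; neither overlapped its promoter entry, and their midpoints were 3734 and 4361 bp from its start site. Tbpl1, the gene of a TBP-related factor that meets the far end of Slc2a12, held 2 with folds of 10.7 and 15.3. Garnl3 beside Slc2a8 held 1 with a fold of 28.5, at 144057 bp from its own start site, and the pseudogene Gm13397 beside Slc2a6 held 1 with a fold of 48.0. In the gene bodies, 3 of the 53 peaks lay in a second gene as well, 2 of Slc2a2 in the lncRNA gene 1700112D23Rik and 1 of Slc2a13 in the pseudogene Gm15381 (fold 9.36), against 9.79% of the 45847 pairs of a protein-coding gene and a body peak.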
